A study of Drosophila melanogaster with 20 samples.

Results

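The mitochondrially encoded genes are the rows of the deposited count table whose symbol in the BDGP6 annotation starts with mt:, the prefix of Drosophila genes carried on the mitochondrial genome. They make up 38 of 17807 rows: 13 protein genes, 2 ribosomal RNA (rRNA) genes, 22 transfer RNA (tRNA) genes and the control region mt:ori. Values are given gene by gene for the 15 rows with 10 or more counts in most of the 20 libraries. These were the 13 protein genes and both rRNA genes, and each of the 15 had at least 10 counts in 20 of 20 libraries and entered every test. The tRNA rows held 26 counts in all, with 12 of the 22 at 0 in every library and no single value above 2, and mt:ori held 77 counts with at most 8 in a library.

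RNA came from whole bodies of male Drosophila melanogaster, 2 days old and reared at 25 °C, with 10 flies pooled into 1 library per line and treatment. The 10 lines are inbred lines of the Drosophila Genetic Reference Panel, each a single wild-derived genotype, and the labels name no mutant allele or transgene. Heat-shocked flies were frozen at the end of 30 minutes at 35 ± 1 °C, and untreated flies were frozen alongside without heat shock. By the outcome of stress preconditioning, the labels class RAL69, RAL93, RAL359, RAL387 and RAL409 as beneficial and RAL195, RAL304, RAL335, RAL737 and RAL819 as detrimental. The groups are therefore beneficial lines under heat shock, beneficial lines without it, detrimental lines under heat shock and detrimental lines without it, with 5 lines each. RAL409, which the submitters treated as an outlier, was left out of every test, leaving 4 beneficial and 5 detrimental lines. Which mitochondrial genome each line carries is not given in the sources used here.

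The mitochondrial genome of animals is a small circle that is transcribed from both strands as long precursors. These are cut, largely at the tRNAs that lie between the other genes, so the level of a mature RNA depends on cleavage, tail addition and decay as well as on transcription. Its protein genes encode core subunits of complexes I, III and IV of the respiratory chain and of ATP synthase, while the remaining subunits, the mitochondrial ribosomal proteins and the machinery that copies and reads the genome are encoded in the nucleus. In whole flies the flight muscle is packed with mitochondria and is a major source of these RNAs.

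Library totals ran from 18.4 to 33.7 M counts, where M stands for 1e+06. Normalised read counts (CPM) are counts per M of a library total adjusted by TMM, the trimmed mean of M values method. All 18 flight muscle markers and all 16 testis markers had 10 or more counts in most libraries of every group, against 2 or 3 of 11 ovary markers. Summed flight muscle markers ran from 30331 to 38647 CPM in beneficial lines under heat shock and from 27453 to 44109 CPM in those lines without it. In detrimental lines they ran from 34098 to 50977 CPM under heat shock and from 30771 to 41750 CPM without it. In whole bodies, fewer mitochondria-rich cells and less mitochondrial RNA per cell cannot be told apart.

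The 15 genes spanned a wide range of levels once set per kilobase of annotated length, and the large rRNA stood far above the rest. Mt:lrRNA (FBgn0013686, BDGP6 mitochondrion 12735 to 14058, minus strand), the RNA core of the large mitochondrial ribosomal subunit, had a median of 22593 CPM per kilobase over 20 libraries and was the highest gene in 20 of 20. It supplied 59.4% to 77.6% of the mitochondrial counts of a library. Mt:srRNA (FBgn0013688, 14131 to 14916, minus strand), its small-subunit counterpart on the same strand, had a median of 34.2 CPM per kilobase. For every 100 counts of mt:lrRNA there were 0.0331 to 0.242 counts of mt:srRNA. The library kit is named in the labels as an mRNA kit, a type that captures RNA by its poly(A) tail, so an RNA's tail bears on these levels along with its abundance.

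Among the protein genes the subunits of cytochrome c oxidase, complex IV, were the most abundant. Mt:CoIII (FBgn0013676, 4736 to 5524), mt:CoII (FBgn0013675, 3083 to 3767) and mt:CoI (FBgn0013674, 1474 to 3009), all on the plus strand, had medians of 3833, 2981 and 2791 CPM per kilobase. The order of the first was firmer than that of the others: mt:CoIII exceeded mt:CoII in 17 of 20 libraries, while mt:CoII exceeded mt:CoI in 11 of 20. Mt:CoI, the catalytic subunit, gave 32.8% to 42.5% of the protein-gene counts of a library.

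Mt:Cyt-b (FBgn0013678, 10499 to 11635, plus strand), the cytochrome b of complex III, followed at a median of 777 CPM per kilobase, below mt:CoI in 20 of 20 libraries. Mt:ATPase6 (FBgn0013672, 4062 to 4736, plus strand), a membrane subunit of ATP synthase, had 536 and was below mt:Cyt-b in 18 of 20. Its partner mt:ATPase8 (FBgn0013673, 3907 to 4068, plus strand), another membrane subunit, had 35.9 CPM per kilobase although the annotated genes overlap by 7 bases and lie on the same strand.

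The 7 subunits of complex I, NADH dehydrogenase, covered the lower part of the range. On the minus strand mt:ND1 (FBgn0013679, 11721 to 12659) had a median of 316 CPM per kilobase, mt:ND4 (FBgn0262952, 8207 to 9545) 127 and mt:ND5 (FBgn0013684, 6409 to 8125) 110. On the plus strand mt:ND3 (FBgn0013681, 5608 to 5961) had 40.3, mt:ND2 (FBgn0013680, 240 to 1263) 24.1 and mt:ND6 (FBgn0013685, 9971 to 10495) 5.42 CPM per kilobase. Mt:ND4L (FBgn0013683, 9545 to 9835, minus strand), which meets mt:ND4 in a shared base, was lowest at 3.64 CPM per kilobase, with 17 to 126 counts in a library. Neighbours in the order that changed places often were mt:ND4 and mt:ND5 (14 of 20 libraries in the stated order), mt:ND3 and mt:ATPase8 (11 of 20), mt:ATPase8 and mt:srRNA (14 of 20), and mt:ND6 and mt:ND4L (15 of 20). Whether reads were assigned by strand, and how reads in overlapping genes were counted, is not given in the sources used here.

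**Figure D1:**
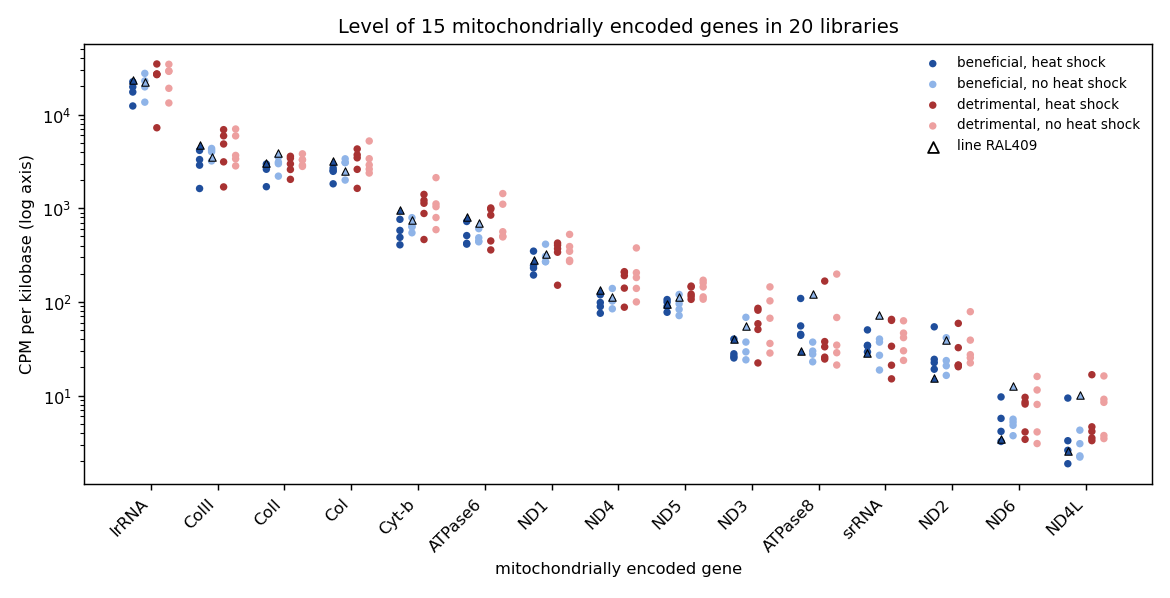
Level of each of the 15 genes in CPM per kilobase of annotated length (log axis), 1 point per library, with the 4 groups side by side and RAL409 as triangles. The medians run from 22593 for lrRNA to 3.64 for ND4L, and the classes overlap for every gene under each treatment except ND5 under heat shock.

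Together the 38 rows took 1.40% to 6.90% of the counts of a library. Under heat shock the beneficial lines had shares of 3.15% in RAL69, 3.69% in RAL93, 2.25% in RAL359 and 3.43% in RAL387, and without it 4.09%, 4.44%, 5.24% and 2.92% in the same order of lines. The detrimental lines under heat shock had 5.83% in RAL195, 1.40% in RAL304, 4.27% in RAL335, 4.999% in RAL737 and 4.73% in RAL819, and without it 5.91%, 3.84%, 5.46%, 2.96% and 6.90%. The heat-shocked library was lower in 7 of 9 lines, the exceptions being RAL387 and RAL737, and the extremes were RAL304 under heat shock and RAL819 without it.

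The mean share was 3.131 ± 0.6246% in beneficial and 4.25 ± 1.69% in detrimental lines under heat shock, and 4.17 ± 0.962% and 5.01 ± 1.59% without it (SD, n = 4 beneficial and 5 detrimental lines). Heat shock minus none averaged -0.890 ± 1.57 percentage points (SD, n = 9 lines), less than the spread between lines. Beneficial minus detrimental was -1.11 points under heat shock and -0.841 points without it, each within the pooled SD of the lines. Single lines moved these differences: the first was -0.719 points without RAL195 and -1.83 without RAL304, and the second was -0.425 without RAL387, -1.36 without RAL737 and -0.370 without RAL819. Heat-induced chaperone transcripts moved with the treatment: 14 genes of this kind took 7.75 ± 0.277% of counts in beneficial lines under heat shock against 0.131 ± 0.00823% without it, and 8.43 ± 1.18% in detrimental lines under heat shock against 0.125 ± 0.0104% without it. With their counts removed from the total, heat shock minus none was -0.572 points. RAL195 was then higher under heat shock, at 6.31% against 5.92% without it, as RAL387 and RAL737 were with all counts. RAL409 also turned, to 4.31% against 4.23%.

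**Figure D2:**
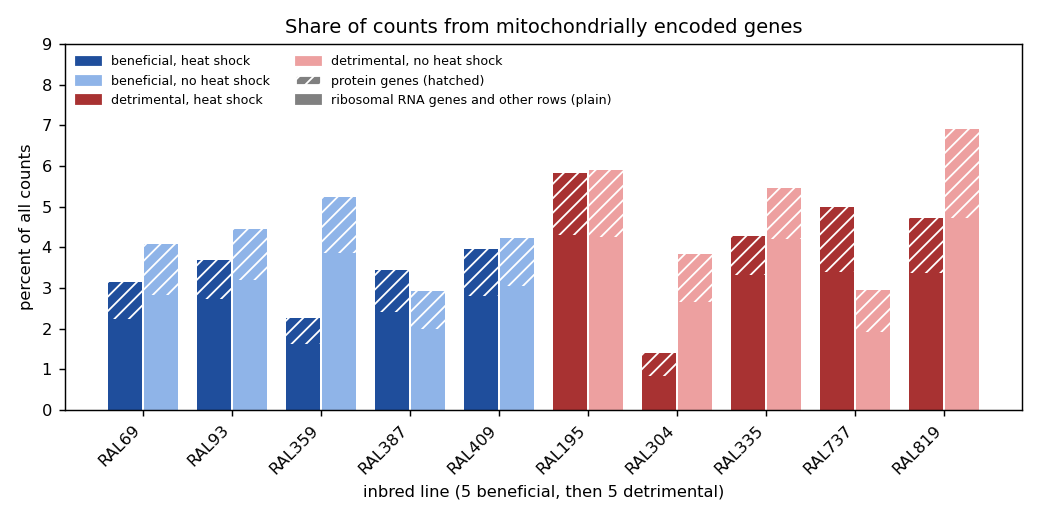
Percent of all counts from mitochondrially encoded genes in each line, with the heat-shocked library left of the untreated one; hatched parts are protein genes and plain parts are rRNA genes and the few counts of other rows. Under heat shock the share lies below that of the untreated library in 7 of the 9 lines tested and in RAL409, and shares run from 1.40% to 6.90%. The total includes heat-induced chaperone counts, and without these RAL195 and RAL409 lie above.

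Heat shock against none over the 9 lines asks whether the treatment changed these RNAs by the end of its 30 minutes. None of the 15 passed an adjusted p of 0.05 in edgeR, where 18.1% of 14270 genes tested did. None had an unadjusted p under 0.05, as 27.7% of all genes had, and none was called by DESeq2 or limma-voom. Their log2 changes ran from -0.37 (mt:ND3) to 0.33 (mt:ATPase8), with a median of -0.11 beside 0.01 for all genes tested, and 12 of 15 were below 0. The median standard error was 0.25 for these genes and 0.12 for all genes, so within a group their values spread more widely. That spread holds differences between lines and between the libraries of a line alike. With line as a replicate block, which pairs the libraries of each line, 35.2% of all genes and again 0 of the 15 were called, with a median log2 change of -0.15. The median standard error was then 0.172 for these genes and 0.0679 for all genes.

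The lines went apart in mt:lrRNA. Under heat shock it had 23013 CPM in RAL69, 29610 in RAL93, 16337 in RAL359 and 26137 in RAL387, and without it 26109, 30215, 36388 and 17947 CPM. In detrimental lines under heat shock it had 45858 CPM in RAL195, 9567 in RAL304, 35859 in RAL335, 35278 in RAL737 and 35758 in RAL819, and without it 38265, 25214, 38684, 17590.5 and 45488 CPM. The heat-shocked library was lower in 6 of 9 lines and the treatments overlapped widely. The log2 change was -0.11 ± 0.25 (SE, n = 9 lines; edgeR adjusted p = 0.873; 95% interval -0.64 to 0.41).

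Of the complex IV genes mt:CoII had the narrowest interval. It had 1163 to 2029 CPM (median 1843) in beneficial lines under heat shock and 1507 to 2408 CPM (median 2086) without it. In detrimental lines it had 1393 to 2455 CPM (median 2037) under heat shock and 1914 to 2608 CPM (median 2246) without it. These ranges overlap, and the log2 change was -0.18 (edgeR adjusted p = 0.421; 95% interval -0.45 to 0.09). When libraries were scaled by their totals alone, which shifted the median of all genes to -0.19, mt:CoII was called at -0.37 (adjusted p = 0.0308), the only such call. Mt:CoI and mt:CoIII stood at -0.16 (-0.55 to 0.22) and -0.19 (-0.71 to 0.34).

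For the other complexes the intervals also spanned 0. Mt:Cyt-b of complex III stood at -0.18 (95% interval -0.67 to 0.30) and mt:ATPase6 at -0.07 (-0.58 to 0.45). In complex I mt:ND5 had the narrowest interval of all 15, -0.07 (-0.31 to 0.17), while mt:ND3 and mt:ND2 stood at -0.37 (-1.04 to 0.29) and -0.07 (-0.71 to 0.56). Mt:srRNA stood at 0.09 (-0.48 to 0.67), and the short genes mt:ATPase8 and mt:ND4L had the widest intervals, -0.62 to 1.29 and -0.81 to 0.90.

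**Figure D3:**
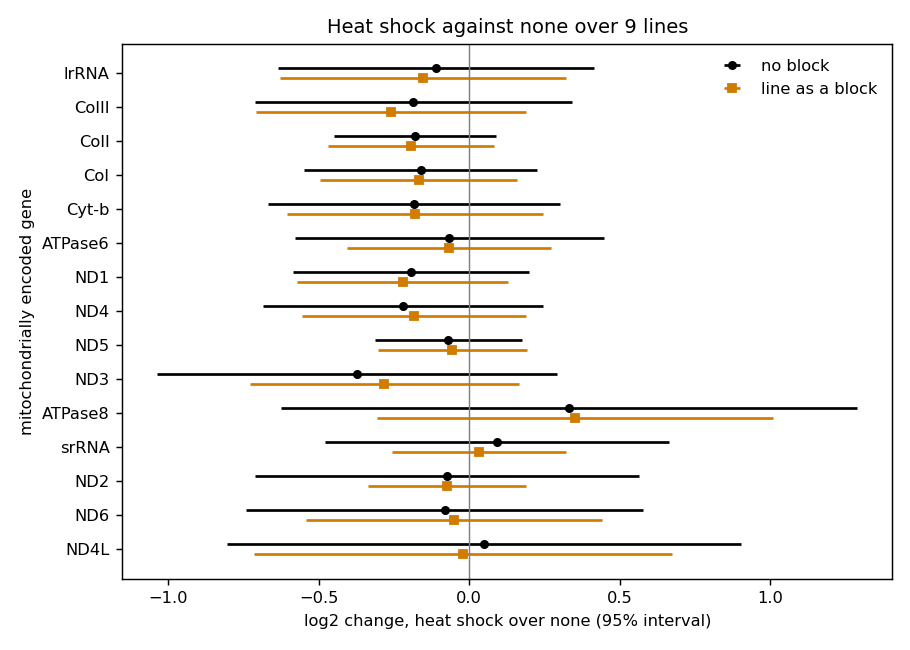
Log2 change of each gene under heat shock over none in 9 lines, with 95% intervals, in the fit without a block (black circles) and with line as a block (orange squares). Every interval spans 0, and the points run from -0.37 for ND3 to 0.33 for ATPase8 without the block.

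Within single lines most of the 15 genes lay on the same side, but the side differed between lines. In RAL335 all 15 were lower under heat shock (median log2 difference -0.33), in RAL69 13, in RAL304 12 (median -0.67), in RAL819 11 and in RAL359 10. In RAL195 13 were higher (median 0.21), in RAL387 12 (median 0.34) and in RAL737 10 (median 0.65), while RAL93 had 7 higher and 8 lower. RAL409, outside the tests, had 6 higher and 9 lower. With 1 library per line and treatment, the spread between pools of a line under the same treatment was not measured.

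Taken by class, heat shock called 0 of 15 in beneficial lines (7.63% of 14270 genes were called) and 0 of 15 in detrimental lines (9.96% called), with no unadjusted p under 0.05 in edgeR (17.1% of genes in beneficial and 19.6% in detrimental lines) and no call by DESeq2 or limma-voom. With line as a replicate block the calls were again 0 of 15, where 19.4% of genes were called in beneficial and 22.9% in detrimental lines. In beneficial lines mt:ATPase8 had 7.31 CPM in RAL69, 8.99 in RAL93, 17.6 in RAL359 and 7.14 in RAL387 under heat shock, against 4.49, 3.72, 4.84 and 6.04 CPM without it. All 4 beneficial lines were thus higher under heat shock and the values do not overlap, as was so for 12.8% of 14323 genes, and the log2 change of 1.10 ± 0.69 did not pass (edgeR adjusted p = 0.490). It was 0.69 without RAL359 and 0.24 with RAL409 included. Paired by line in the replicate block it was 1.03 ± 0.44 (unadjusted p = 0.0382, adjusted p = 0.130), where 32.2% of all genes had an unadjusted p under 0.05 in edgeR. RAL409 went the other way, at 4.83 CPM under heat shock against 19.7 CPM without it. In detrimental lines mt:ATPase8 had 5.38 CPM in RAL195, 27.1 in RAL304, 3.98 in RAL335, 6.12 in RAL737 and 4.17 in RAL819 under heat shock, against 5.61, 11.1, 4.65, 32.1 and 3.44 CPM without it.

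The interaction of class and treatment, the response of beneficial minus that of detrimental lines, called 0 of 15 and 0 of all genes in edgeR, DESeq2 and limma-voom, and no member had an unadjusted p under 0.05 (0.294% of 14270 genes did). It ran from -0.38 (mt:CoIII) to 1.39 (mt:ATPase8; 95% interval -0.55 to 3.32). The value of mt:ATPase8 was 0.53 with RAL409 included, 2.33 without RAL304 and 0.40 without RAL737. With line as a replicate block it was 1.22 for mt:ATPase8 (-0.10 to 2.53), and again 0% of genes were called.

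Beneficial against detrimental lines within each treatment is the study's own comparison. Without heat shock all 15 genes were lower in beneficial lines, with log2 differences of -1.47 (mt:ND4L) to -0.12 (mt:CoII) and a median of -0.59, beside a median of -0.00285 for 13770 genes tested. This count held under each other scaling of the libraries. None passed the adjusted threshold in edgeR, where 0% of genes did, nor in limma-voom, nor in DESeq2, which called 17 other genes. At an unadjusted p under 0.05, which 4.18% of all genes reached, there were 4 members: mt:ND5, mt:ND4L, mt:ND4 and mt:Cyt-b. The 15 genes share libraries and precursors, so they are not 15 separate observations.

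Mt:ND5, the complex I subunit with the smallest p, had 164 CPM in RAL69, 143 in RAL93, 206 in RAL359 and 123 in RAL387 without heat shock, against 194.5 in RAL195, 274 in RAL304, 248 in RAL335, 184 in RAL737 and 293 in RAL819. RAL359 lay above RAL195 and RAL737, so the classes overlapped. The log2 difference was -0.58 ± 0.18 (SE; edgeR unadjusted p = 0.0091, adjusted p = 0.999). Mt:ND4 had 137, 139, 186 and 113 CPM in RAL69, RAL93, RAL359 and RAL387, against 275, 187, 244, 134 and 505 CPM in RAL195, RAL304, RAL335, RAL737 and RAL819. Here only RAL737 among the detrimental lines fell inside the range of the beneficial lines, and the log2 difference was -0.90 ± 0.34 (unadjusted p = 0.0233 in edgeR).

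Mt:Cyt-b had 717, 730, 902 and 622 CPM in those 4 beneficial lines without heat shock, against 1181, 905, 1265, 672 and 2412 CPM in the 5 detrimental lines. RAL737 again lay within the beneficial range and RAL819 far above the others, with a log2 difference of -0.79 ± 0.32. Mt:ND4L had 1.25, 0.643, 0.894 and 0.663 CPM against 1.01, 2.66, 2.47, 4.72 and 1.09 CPM, a log2 difference of -1.47 ± 0.48. RAL195 and RAL819 lay within the range of the beneficial lines. Over the 15 genes no gene separated the classes without heat shock, as 1.28% of 14323 genes did. RAL409 lay above the median of the detrimental lines for 7 of the 15, and with it in the fit the median difference was -0.45.

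Under heat shock 14 of 15 were lower in beneficial lines (13 when scaled by library totals alone), with a median of -0.45 and a range of -1.002 (mt:ND3) to 0.14 (mt:ATPase8), beside a median of -0.00374 for 13877 genes. None was called in edgeR (0% of genes called) or limma-voom, nor in DESeq2, which called 11 other genes. Again 4 members had an unadjusted p under 0.05, reached by 4.4% of all genes: mt:ND5, mt:ND4, mt:ND3 and mt:Cyt-b. The flight muscle markers, measured in the same libraries, had a median log2 difference of -0.19 under heat shock and -0.01 without it. In each, 0 of 18 were called in edgeR, beside 0% of all genes. The part of these markers in the result was not tested.

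Mt:ND5 separated the classes under heat shock, as 1.42% of 14323 genes did. It had 133 CPM in RAL69, 154 in RAL93, 182 in RAL359 and 171 in RAL387, against 254 in RAL195, 208 in RAL304, 183 in RAL335, 248 in RAL737 and 197 in RAL819. The gap between RAL359 (182.1 CPM) and RAL335 (183.0 CPM) was narrow, and RAL409, at 163 CPM, lay with the other beneficial lines. The log2 difference was -0.45 ± 0.13 (edgeR unadjusted p = 0.00662, adjusted p = 0.999).

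For the other 3 the classes overlapped through RAL304, the lowest detrimental line. Mt:ND4 had 101, 120, 132 and 160 CPM in RAL69, RAL93, RAL359 and RAL387, against 282, 118, 188, 276 and 256 CPM in RAL195, RAL304, RAL335, RAL737 and RAL819 (log2 difference -0.81 ± 0.25). Mt:ND3 had 8.94, 9.32, 14.2 and 9.90 CPM against 30.3, 7.91, 28.9, 20.7 and 18.02 CPM (-1.002 ± 0.34). Mt:Cyt-b had 556, 659, 463 and 866 CPM against 1285, 527, 1000, 1597 and 1380 CPM (-0.87 ± 0.30). RAL409 was above the median of the detrimental lines for 1 of the 15 genes. It was also above every other beneficial line for 8 of the 15. Among these were mt:ND4 (180 CPM), mt:ND3 (14.3 CPM) and mt:Cyt-b (1102 CPM), the last also above RAL335.

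Differences among the 9 lines were then tested with treatment as an additive term, so that the libraries of a line stood as its samples. Of the 15 genes 10 were called, where 63.6% of all genes tested were called, so the share was near the background. With RAL409 included 7 of the 15 were called beside 63% of all genes, and limma-voom called 8 beside 64.3%. The range of fitted line values had a median of 1.56 on the log2 scale over the 15 genes and 0.68 over all genes. Such a range widens with the spread between the libraries of a line as well as with differences between lines. Called were 6 complex I genes (mt:ND2, mt:ND3, mt:ND4, mt:ND4L, mt:ND5 and mt:ND6), mt:Cyt-b, both ATP synthase genes and mt:srRNA. The 3 complex IV genes, mt:ND1 and mt:lrRNA were not called, with edgeR adjusted p of 0.102 (mt:CoI), 0.517 (mt:CoII), 0.116 (mt:CoIII), 0.166 (mt:ND1) and 0.167 (mt:lrRNA).

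Mt:ND2 gave the smallest adjusted p, 0.000651 in edgeR, with a range of 1.78. Line RAL335 had 60.5 CPM under heat shock and 80.6 CPM without it, and RAL359 had 55.6 and 42.5 CPM. The other 7 lines tested lay at 19.6 to 33.3 CPM under heat shock and 16.9 to 40.1 CPM without it. RAL335 was the highest line under both treatments and RAL359 next to it.

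Lines were ranked by their mean deviation over both libraries from the 10 lines, on the log2 scale. By this measure mt:ND3 was highest in RAL335, at 28.9 CPM under heat shock and 36.3 CPM without it (1.01), and lowest in RAL387, at 9.90 and 8.54 CPM (-0.81). Single libraries lay beyond these. Under heat shock RAL195 was higher at 30.3 CPM, and RAL304, RAL69 and RAL93 were lower at 7.91, 8.94 and 9.32 CPM. Without heat shock RAL819 was higher at 51.3 CPM. Mt:srRNA, by contrast, was lowest in RAL335, at 11.9 CPM under heat shock and 18.7 CPM without it (-0.91), and highest in RAL819, at 51.2 and 49.5 CPM (0.85), although without heat shock RAL93 was lower at 14.8 CPM and RAL409 higher at 57.4 CPM. By mean deviation RAL335 thus ranked highest for mt:ND2, mt:ND3 and mt:ND6, all on the plus strand, and lowest for mt:srRNA, on the minus strand. Mt:lrRNA in RAL335, at 35859 and 38684 CPM, was among the higher values.

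RAL819 was the highest line for 7 genes by its mean deviation: mt:CoI, mt:ATPase6, mt:Cyt-b, mt:ND1, mt:ND4, mt:ND5 and mt:srRNA. Under heat shock all of these except mt:srRNA were higher in RAL737 or RAL195, such as mt:CoI at 6591 CPM in RAL737 against 5711 CPM in RAL819. Mt:Cyt-b in RAL819 had 1380 CPM under heat shock and 2412 CPM without it, and mt:ND4 256 and 505 CPM. At the other end, RAL819 was lowest by mean deviation for mt:ATPase8 (4.17 and 3.44 CPM) and mt:ND6 (1.79 and 1.62 CPM). Under heat shock RAL335 was lower for mt:ATPase8 (3.98 CPM) and RAL387 for mt:ND6 (1.70 CPM). By the same measure RAL304 was lowest for mt:lrRNA, mt:CoI, mt:CoIII and mt:ND1 and highest for mt:ATPase8 and mt:ND4L. These ranks rested on its heat-shocked library, although under heat shock RAL359 was lower for mt:CoIII, at 1281 CPM against 1332 CPM in RAL304. Without heat shock RAL387 and RAL737 were lower than RAL304 for mt:lrRNA, mt:CoI, mt:CoIII and mt:ND1. RAL737 was then higher for mt:ATPase8 and mt:ND4L.

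**Figure D4:**
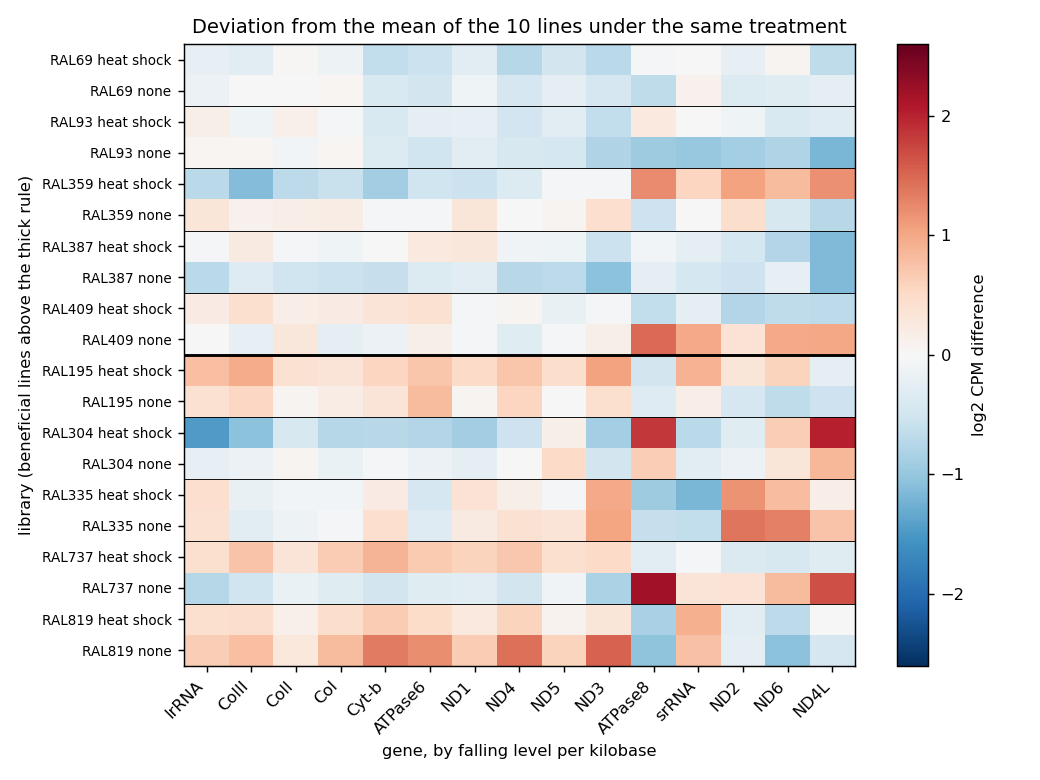
Deviation of each library from the mean of the 10 lines under the same treatment, in log2 CPM, for the 15 genes ordered by level; each line has its heat-shocked library above its untreated one, beneficial lines above the thick rule. Both rows of RAL335 are red for ND2, ND3 and ND6 and blue for srRNA, while ATPase8 and ND4L stand out in single rows of RAL304, RAL359, RAL409 and RAL737.

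The libraries of a line agreed less in these genes than elsewhere for some lines. After group means were removed, the correlation between both libraries of a line was 0.530 to 0.809 over all genes. Over the 15 genes it was 0.948 in RAL335, 0.845 in RAL304, 0.806 in RAL819, 0.778 in RAL93 and 0.740 in RAL195, but 0.160 in RAL69, 0.0101 in RAL359, -0.373 in RAL387 and -0.706 in RAL737. These are descriptions over 15 genes that share libraries. RAL737 had the widest gap between its libraries for 9 of the 15 genes, reaching 2.49 on the log2 scale for mt:ATPase8.

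Mt:ATPase8 and mt:ND4L, the shortest genes, stood apart in the same 4 libraries. Counts of mt:ATPase8 per 100 counts of mt:ATPase6 were 11.2 in RAL304 under heat shock, 6.19 in RAL359 under heat shock, 9.45 in RAL737 without it and 4.19 in RAL409 without it. The other 16 libraries had 0.355 to 2.92. Counts of mt:ND4L per 100 counts of mt:ND4 were 4.14, 2.08, 3.52 and 1.97 in those 4 libraries, in the order named, and at most 1.43 in the others. The 4 libraries came from 4 lines, both classes and both treatments, and the other library of each of these lines did not exceed 2.92 for the first ratio.

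The same libraries leaned the same way in some other pairs but not in all. Mt:srRNA per 100 counts of mt:lrRNA was 0.174, 0.242, 0.208 and 0.196 in the 4 libraries, in the order above, and at most 0.143 in the others. Mt:ND3 per 100 counts of mt:CoIII was 0.452 in RAL737 without heat shock, below the median of 0.461. Mt:ND2 per 100 counts of mt:CoI was 1.52 and 1.81 in RAL335, above the 0.861 of RAL304 under heat shock. Mt:ND6 per 100 counts of mt:Cyt-b was 0.853 in RAL304 and 1.10 in RAL359 under heat shock, and 0.898 in RAL737 and 0.797 in RAL409 without it, where the other 16 libraries had 0.0671 to 0.666. The trend of nuclear genes with their length in a library, as log2 per doubling of length, was 0.04, 0.12, -0.04 and -0.17 in these 4 libraries, in the same order, and so had no common sign. Leaving lines RAL304, RAL359 and RAL737 out of the test among lines, a choice made after these values were seen, gave 14 of 15 genes called among the remaining 6 lines, where 60.6% of all genes were called. Mt:ATPase8 was then not called (adjusted p = 0.192 in edgeR), while mt:CoI, mt:CoII, mt:CoIII, mt:ND1 and mt:lrRNA were, with adjusted p of 0.00608, 0.0341, 0.00434, 0.0252 and 0.00971. For 11 of the 15 genes the widest gap between the libraries of a line was in 1 of these 3 lines. Such gaps are the spread against which the test among lines is made. Leaving out lines picked on these genes thus favours calls among them, and the 14 calls are not support for line differences.

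**Figure D5:**
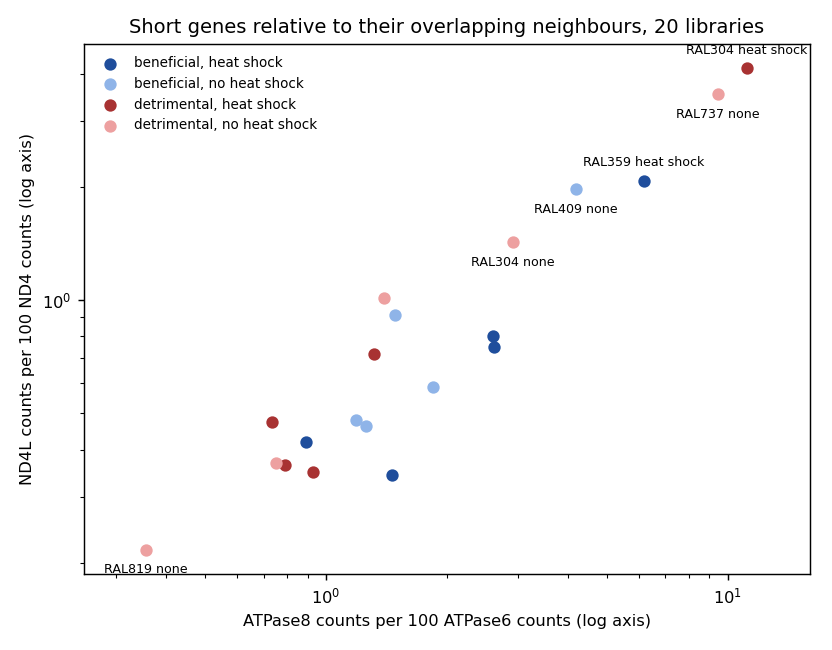
Counts of ATPase8 per 100 counts of ATPase6 against counts of ND4L per 100 counts of ND4 (log axes), 1 point per library, coloured by group. The libraries of RAL304 and RAL359 under heat shock and of RAL737 and RAL409 without it lie at the upper right, above 4 on the horizontal axis, and the other 16 at or below 2.92.

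Nuclear genes that serve the mitochondrial genome were counted over lists. Of all genes tested 8.38% rose and 9.73% fell under heat shock, and 16.3% rose and 18.9% fell with line as a block. Of 11 tested genes for mitochondrial transcription and replication, 4 fell and 0 rose under heat shock over all lines: mTTF, a termination factor (-0.27), mTerf3 of the same family (-0.29), mtDNA-helicase, the replicative helicase (-0.60), and mtTFB2, a transcription factor (-0.32). Of 11 tested genes for RNA processing and decay, 4 fell and 0 rose: rswl, part of mitochondrial RNase P (-0.65 ± 0.07, edgeR adjusted p = 1.85e-06), RNaseZ, which trims tRNA ends (-0.48), Suv3, an RNA helicase (-0.25), and Lrpprc2 (-0.28). The median log2 change was -0.22 in the first list and -0.25 in the second, beside 0.01 for all genes. With line as a replicate block, 7 fell and 1 rose in the first list and 7 fell in the second.

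Of 71 tested mitochondrial ribosomal protein genes 15 fell and 0 rose, led by mRpS30 (-0.29), mRpL52 (-0.42), mRpL19 (-0.31) and mRpL21 (-0.39), with a median of -0.15. Paired by line in the replicate block 32 fell. Of 8 tested translation factors mRRF1 (-0.44) and mIF2 (-0.47) fell. Among 11 mitochondrial chaperones and proteases 3 rose and none fell: Hsc70-5, the mitochondrial Hsp70 (0.84 ± 0.05), Hsp60A, a chaperonin (0.85 ± 0.05), and ClpX, a protease subunit (0.27). Among 7 regulators of mitochondrial biogenesis Myc rose (0.63) and srl, the fly PGC-1 homologue, fell (-0.45).

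The nuclear partners of the mitochondrially encoded subunits were not called in either direction without the block: 0 of 39 for complex I, 0 of 11 for complex III, 0 of 15 for complex IV and 0 of 15 for ATP synthase, with no unadjusted p under 0.05 in edgeR in these lists and medians of -0.03 to 0.01. With line as a replicate block 3 complex I genes rose and 1 complex III gene fell. Between the classes, under heat shock or without it, no member of any of these 10 lists was called in edgeR. As 0% of all genes tested were called there, this says nothing particular to the lists. The medians of the nuclear complex lists were -0.08 to 0.02 under heat shock and 0.03 to 0.06 without it, where the 15 mitochondrially encoded genes had -0.45 and -0.59. Whether the mitochondrial and nuclear subunits differed from each other was not tested.

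The nuclear genes whose log2 CPM was most like the mean of the 13 mitochondrial protein genes over the 20 libraries were Pur-alpha (r = 0.831), Rbsn-5 (0.764), CG32816 (0.759), Or22a (0.743) and CR45227 (0.733), out of 13597. The mean was taken with libraries scaled without mitochondrial counts. These values describe the best matches among many genes, in libraries that come in pairs of the same line, and Or22a and CR45227 had medians of only 0.585 and 0.521 CPM.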

How the data were processed

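The authors deposited raw counts, whole numbers per FlyBase gene, for 17807 genes in 20 libraries. Per the submitters' processing notes the build was BDGP6 and the tools Bowtie2 2.2.9, SAMtools 1.12 and DESeq2 1.28.1. The counting tool, annotation and strand setting are not given in the sources used here. The authors' 2 tables of class comparisons were not used. Symbols and positions came from Ensembl release 115, which named 17710 identifiers and left 97 unnamed.

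Tests used R 4.3.3 and edgeR 4.0.16 (filterByExpr, TMM scaling, quasi-likelihood F tests) on all genes, with Benjamini-Hochberg adjustment over all genes tested and a threshold of 0.05. Class tests used the 9 libraries of a treatment. Heat shock and its interaction with class came from a group-means fit to 18 libraries, and differences among lines from a fit of line plus treatment. RAL409 was left out, as the study did. Line was the unit of replication, with 1 pool per line and treatment. In the class tests and the group-means fit, p-values measure the spread between lines. In the test among lines and with line as a block, they rest on how far the libraries of a line differ beyond the fitted treatment effect. The same inbred line gave both libraries, and their deviations from group means correlated at 0.530 to 0.809 over all genes (log2 of CPM plus 0.5), against at most 0.136 with another line. Line as a block was an alternative.

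Other alternatives were DESeq2 1.42.0, limma-voom (limma 3.58.1), DESeq2 size factors, library totals, scaling without mitochondrial counts, no filter, a threshold of 0.1, RAL409 included and each line left out. The edgeR fits of the classes without heat shock, of heat shock and of lines were tested on simulated data. In the simulated heat shock data the libraries of a line were not paired, so the effect of pairing on that fit was not checked. The members, lists and tests were chosen with earlier results of these data known. The 5 nearest nuclear genes were taken by Pearson's r of log2 CPM with a prior count of 2, and up to 4 genes per list and direction by smallest p.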

Additional observations from a re-analysis of the deposited data

Results flagged for a closer look

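In 9 of 64 groups of 5 lines checked, 15 genes and the share of counts in each group with RAL409 included, a single library lay far from the others. Chance flags about 5% of such groups, or 3.2 of 64, if the groups are independent and their values normal. The check used CPM rather than a log scale and the genes share libraries, so 9 and 3.2 cannot be weighed against each other. In beneficial lines under heat shock it was RAL359, with mt:ND2 at 55.6 CPM (others 15.8 to 25.0), mt:ND4L at 2.74 CPM (0.547 to 0.962) and mt:srRNA at 39.6 CPM (22.5 to 27.1). In beneficial lines without heat shock it was RAL409, with mt:ATPase8 at 19.7 CPM (3.72 to 6.04), mt:ND4L at 2.97 CPM (0.643 to 1.25) and mt:ND6 at 6.71 CPM (1.96 to 2.94). In detrimental lines it was RAL304 under heat shock, with mt:ATPase8 at 27.1 CPM (3.98 to 6.12) and mt:ND4L at 4.87 CPM (0.963 to 1.35), and RAL737 without it, with mt:ATPase8 at 32.1 CPM (3.44 to 11.1). All 9 were high, and they fell in 4 libraries.

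The control region mt:ori, outside the gene-by-gene values, held 1 to 8 counts in each of the 20 libraries, with a median of 4. It was flagged because its highest count passed a fixed floor of 3, which is not a test against background.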

How the results depend on the processing

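The counts of members called stayed within 1.5 times of those reported under every alternative run, except that heat shock over all lines called 1 gene, mt:CoII, instead of 0 when libraries were scaled by their totals alone. Among lines, the 10 calls, beside 63.6% of all genes, became 7 with RAL409 included (63% of all genes), 8 with limma-voom (64.3%), 7 to 12 with a line left out (55.6% to 67.7%) and 14 without RAL304, RAL359 and RAL737 (60.6%). The lines of the last setting were picked on values of these same genes, so its 14 calls are not an independent check. The calls of mt:ND5, mt:ND6, mt:ND4L and mt:ATPase8 were each lost when any of several single lines was left out, and that of mt:Cyt-b (adjusted p = 0.152) without RAL819. Line as a replicate block, which paired the libraries of a line, changed no call of a mitochondrially encoded gene. With a line left out, the median difference between classes ran from -0.57 to -0.35 under heat shock and from -0.81 to -0.44 without it. The difference in share between heat shock and none ran from -1.26 to -0.628 points, and that between classes from -1.83 to -0.719 points under heat shock and from -1.36 to -0.370 points without it. Mt:ATPase8 and mt:ND4L, with medians under 10 CPM, had the widest intervals for heat shock over all lines and for the classes under heat shock. Mt:ND6, at a median of 2.84 CPM, had a narrower interval for heat shock over all lines, -0.74 to 0.58. Whether depth had a part in these widths was not tested.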
